A study of Mus musculus with 37 samples.

Results

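In brown adipose tissue of BXD mice, 81 array transcripts had levels that fell into 2 groups of strains on either side of the level midway between the parental strains. They were chosen by 3 measured conditions among the 28392 transcripts with a gene name, out of 41155 transcripts in all. DBA/2J and C57BL/6J had to differ by at least 1.5 units, at least 8 of the 35 BXD strains had to lie on each side of the parental midpoint, and the standard deviation (SD) within each side had to stay under 25% of the parental difference. These parental and side values therefore describe how the members were selected, and no test was made on them. Several array rows carried identical values, so the 81 transcripts held 72 distinct profiles under 66 gene names, and each distinct profile was counted once from here on. No filter on low values was applied.

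The tissue came from 29-week-old males on a Harlan chow diet that were fasted overnight. Each of 37 arrays measured 1 strain, from RNA of about 5 mice pooled evenly. The groups were the inbred parents C57BL/6J and DBA/2J, with 1 array each, and 35 BXD strains, which are inbred descendants of crosses between these parents and carry no engineered allele or other treatment. A strain had no replicate array, so the spread between mice of a strain was not measured and a difference between the parents has no error. Values are scores on a scale where every array has a mean of 8 and an SD of 2. A unit is not a stated power of any fold, so differences are given in units only.

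All 8 brown fat marker genes lay above background, and their mean ran from 12.7 to 13.8 over the BXD strains. The mean of 12 liver genes ran from 7.97 to 12.2, highest in BXD70, and was 10.8 in DBA/2J against 8.32 in C57BL/6J. The mean of 8 skeletal muscle genes ran from 9.70 in BXD65 to 13.5 in BXD97. Between the sides of any member, the largest differences of these lists were 0.71 units for muscle with Rufy4 and 0.45 units for liver with Mir3096b, and their part in the members' levels was not tested. In a tissue sample, fewer cells of a type and less RNA per cell cannot be told apart.

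A BXD strain is homozygous at nearly every locus for the allele of one or the other parent. Where a variant close to a gene sets its transcript level, or alters how an array probe binds the transcript, strains carrying the DBA/2J allele tend to have one level and strains carrying the C57BL/6J allele another. Neighbouring loci are inherited together in most strains, so transcripts of nearby genes can split the strains alike. Genotypes of the strains were not used here, and neither a variant in a regulatory region nor one under a probe was tested for any member.

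Among all named transcripts, 223 had a parental difference of 1.5 units or more, 149 of these also had 8 strains on each side, and 81 met the condition on the SD as well. For comparison, the median parental difference over all transcripts was 0.182 units and the 95th percentile 0.77 units. The members' median was 2.26 units. DBA/2J was higher for 23 profiles under 23 names, and C57BL/6J was higher for 49 profiles under 43 names. The side of DBA/2J held 9 to 27 strains, with a median of 15. The 2 sides were parted by a gap of at least 1 unit in 17 profiles, and by less than 0.25 units in 36. In 30 profiles the gap between sides was also the widest gap between any neighbouring strains. The split is thus wide for a minority of members, while for many others the strains run close to the midpoint.

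The 3 members just inside the limit on the difference were Ighg3 at 1.52 units, Mettl21d at 1.53 and Vmn1r113 at 1.53. Just outside it lay Vmn1r128 at 1.47, LOC621549 at 1.47 and Sfi1 at 1.43. For the SD, Ddx24 at 24.96%, Vmn1r151 at 24.93% and Huwe1 at 24.8% were just inside, while Abhd16a at 25.04%, another probe set of Vmn1r117 at 25.04% and Vmn1r129 at 25.29% were just outside. For the number of strains on the smaller side, Ddx24 with 8, Gm3893 with 9 and 4933409K07Rik with 9 were just inside, and Gm5622 with 7, Fryl with 7 and Hdac5 with 5 were just outside. Members near a limit do not stand apart from the transcripts beyond it.

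Members with the widest parental differences are described first. Mela, a melanoma antigen gene derived from an endogenous retrovirus, read 7.82 in C57BL/6J and 12.7 in DBA/2J. In the 14 strains on the C57BL/6J side its lowest, median and highest levels were 7.04, 7.80 and 8.36, and in the 21 strains on the DBA/2J side they were 12.6, 12.9 and 15.4. An empty stretch of 4.26 units lay between the groups, the widest of all members, and BXD69 was the highest strain. H2-Ea-ps, the alpha chain gene of MHC class II E that C57BL/6 mice are known not to express, read 7.55 in C57BL/6J and 12.1 in DBA/2J. Its 24 strains on the C57BL/6J side ran from 6.66 to 8.06 with a median of 7.53, and its 11 strains on the DBA/2J side ran from 11.7 to 13.6 with a median of 12.6. For both genes no strain lay between the groups, and the lower group read at or near background.

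Rufy4, a gene linked to autophagy in dendritic cells, read 8.77 in C57BL/6J and 13.1 in DBA/2J. Its 16 strains on the C57BL/6J side ran from 8.65 to 9.35 with a median of 8.99, and its 19 strains on the DBA/2J side ran from 12.29 to 13.41 with a median of 12.99. Both groups were narrow and far apart. Zfp125, a zinc finger gene, was the widest difference in the other direction, with 8.20 in C57BL/6J and 4.49 in DBA/2J. Its 20 strains on the C57BL/6J side ran from 8.10 to 9.04 with a median of 8.61, and its 15 strains on the DBA/2J side ran from 4.71 to 5.65 with a median of 5.13. LOC100503226 split as cleanly, with 19 strains from 10.57 to 11.61 around a median of 11.04 and 16 strains from 7.37 to 8.28 around a median of 7.94.

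Other wide members had broader groups. Snord13, a small nucleolar RNA that guides a modification of ribosomal RNA, was 7.11 in C57BL/6J and 11.5 in DBA/2J, and its strains ran from 6.59 to 9.14 on one side and from 9.38 to 11.6 on the other, nearly without a break. Ear11, an eosinophil-associated ribonuclease, was 6.74 and 10.1 in the parents, with sides from 5.80 to 8.24 and from 8.51 to 10.6. Lrrc8b, a subunit of volume-regulated anion channels, and Rbp7, a retinol-binding protein, were higher in DBA/2J by 3.05 and 2.93 units. The small nucleolar RNA Snord53 and the microRNA gene Mir3096b were higher in DBA/2J by 2.45 and 2.48 units. The side means of Mir3096b, 7.44 on the DBA/2J side and 5.08 on the other, both lay under the background level given below.

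**Figure D1:**
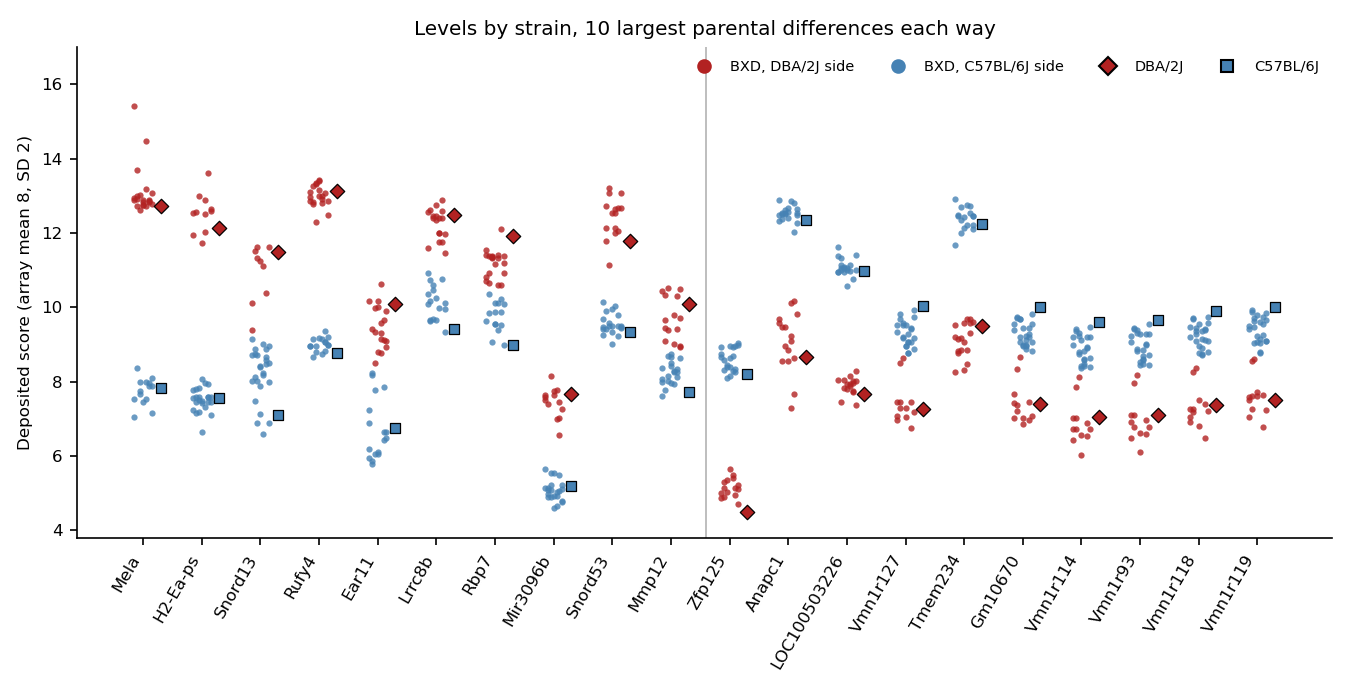
Deposited score (vertical axis, array mean 8 and SD 2) of the 10 gene names with the largest parental difference in each direction, DBA/2J higher on the left and C57BL/6J higher on the right. Each dot is 1 BXD strain, coloured by its side of the parental midpoint, and diamonds and squares are DBA/2J and C57BL/6J. Mela, H2-Ea-ps and Rufy4 have empty space between the sides, whereas the sides of Snord13 and Rbp7 are parted by 0.237 and 0.245 units.

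The parents did not always mark the limits of their sides. DBA/2J lay within the range of its own side in 68 of 72 profiles and C57BL/6J in 48 of 72. The difference between the side means was 0.44 to 1.86 times the parental difference, with a median of 0.74. The ratio was above 1 most clearly for Gm3893 and 4933409K07Rik, 2 genes annotated as members of a CC chemokine (CCL) cluster on chromosome 4. The first Gm3893 profile read 9.83 in C57BL/6J and 8.05 in DBA/2J, but its 9 strains on the C57BL/6J side ran from 10.4 to 11.7 with a median of 11.1, all of them above both parents. Its 26 strains on the DBA/2J side ran from 7.17 to 8.29 with a median of 7.80. For 4933409K07Rik, between 7 and 9 of the 9 strains in each of its 4 profiles exceeded C57BL/6J.

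Background was gauged from 1128 olfactory receptor transcripts, which brown fat is not expected to express, and whose 95th percentile was 7.94. In 49 of 72 profiles the lower side had a mean at or under that level, so the lower state was close to background there. In 15 profiles the upper side was at or under it too, among them Mir3096b, Ifi202b, Rnf220, Trim12c, Serpina12, Ddx24, Huwe1, Rrn3 and D5Ertd579e. The level of such members is near what the array reads from genes of other tissues.

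The gene lists fixed for this tissue were chosen with earlier results of these data known, so their counts of members are a description. Of 31 interferon-inducible and antiviral genes on the array, Ifi202b and Trim12c were members. Of 32 MHC and antigen presentation genes, H2-Ea-ps was a member, and of 24 genes known to vary between the parents Mela, H2-Ea-ps and Ifi202b were. Of 32 glutathione and aldehyde detoxification genes, 18 mitochondrial genes and 17 lectin-like and complement genes none was a member. Over all named transcripts 81 of 28392 were members. At that share a list of this size would be likely to hold no member, so the lists without one are not informative. The largest class was that of vomeronasal type 1 receptors (Vmn1r), pheromone receptors of the vomeronasal organ, with 24 of 236 transcripts, whereas 0 of 133 vomeronasal type 2 receptors and 0 of 1128 olfactory receptors were members.

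The Vmn1r members formed 1 cluster on chromosome 7 with Gm10670 and with Gm8693, which RefSeq names Vmn1r257. The count of the Vmn1r class above went by array names and left both out. The cluster held 20 profiles under 19 names, and all 20 were higher in C57BL/6J. Vmn1r127 read 10.04 in C57BL/6J and 7.27 in DBA/2J, with 23 strains from 8.77 to 9.92 around a median of 9.29 and 12 strains from 6.74 to 8.63 around a median of 7.29. The other names were Vmn1r91, Vmn1r93, Vmn1r101, Vmn1r104, Vmn1r113, Vmn1r114, Vmn1r117, Vmn1r118, Vmn1r119, Vmn1r120, Vmn1r124, Vmn1r130, Vmn1r132, Vmn1r151, Vmn1r152 and Vmn1r157. Their parental differences ran from 1.53 units for Vmn1r113 to 2.66 units for the second profile of Vmn1r127, and up to 2.77 units for its first.

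These receptors are copies of one another, and the sequences show how alike they are. Promoters were found in the RefSeq table for 16 of the Vmn1r names, each 300 bases long from 250 before to 50 after the start of the gene. Over the 120 pairs of these promoters, a global alignment gave identical bases at 81.3% to 100% of 300 positions, with a median of 86%. The pairs Vmn1r104 with Vmn1r152 and Vmn1r93 with Vmn1r114 had identical promoters. Vmn1r127 is shown with the most and the least similar other member, and capitals mark bases that have no identical partner in the alignment to Vmn1r127. Vmn1r151 was identical at 98.3% and Vmn1r113 at 81.3%.
Vmn1r127, GRCm38.p6 chr7:21319812-21320111, minus strand: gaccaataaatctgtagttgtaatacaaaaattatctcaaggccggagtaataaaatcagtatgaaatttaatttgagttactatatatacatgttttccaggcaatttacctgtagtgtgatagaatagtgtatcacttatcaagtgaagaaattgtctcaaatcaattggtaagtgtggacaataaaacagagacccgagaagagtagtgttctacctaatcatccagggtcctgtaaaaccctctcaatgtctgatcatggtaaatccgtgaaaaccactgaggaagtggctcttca
Vmn1r151, GRCm38.p6 chr7:22499629-22499928, minus strand: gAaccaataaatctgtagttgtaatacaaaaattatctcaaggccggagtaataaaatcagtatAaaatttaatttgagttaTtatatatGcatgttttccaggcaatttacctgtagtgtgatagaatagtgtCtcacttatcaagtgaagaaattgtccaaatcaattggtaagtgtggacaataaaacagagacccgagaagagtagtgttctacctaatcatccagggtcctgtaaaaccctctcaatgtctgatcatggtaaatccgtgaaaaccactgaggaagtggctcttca
Vmn1r113, GRCm38.p6 chr7:20787035-20787334, plus strand: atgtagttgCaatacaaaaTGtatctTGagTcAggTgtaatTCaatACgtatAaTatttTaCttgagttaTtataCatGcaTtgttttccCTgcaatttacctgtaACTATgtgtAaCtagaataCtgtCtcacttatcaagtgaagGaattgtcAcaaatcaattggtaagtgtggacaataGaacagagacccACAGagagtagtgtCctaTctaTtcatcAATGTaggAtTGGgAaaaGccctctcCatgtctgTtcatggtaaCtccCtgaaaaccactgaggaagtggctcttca
Promoters are not the stretches that the probes read, and the transcripts were not compared here. Whether probe sets of this family share targets was not tested, and the calls between its members are uncertain for that reason.

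To ask which members split the strains alike, each pair of profiles with different names was compared by the side of the 35 strains, with a two-sided Fisher's exact test and Benjamini-Hochberg adjustment over all 2547 pairs. Of these, 199 pairs passed an adjusted p of 0.05, or 7.81%. Within the Vmn1r cluster, 178 of 189 pairs passed, and 24 to 35 strains (median 33) lay on the same side. The other 11 pairs all involved Vmn1r157, which shared its side with these members in 24 of 35 strains (adjusted p = 0.106, Fisher's exact test). No pair of a cluster profile with a member outside it passed, of 1040 tested, and 64 had an unadjusted p under 0.05 in Fisher's exact test. In 12 strains all 20 profiles lay on the C57BL/6J side, in 8 strains all lay on the DBA/2J side, and in the other 15 strains the cluster was mixed. In 14 of these 15 strains 1 to 4 profiles departed from the rest, and in BXD50 7 did.

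Outside the cluster, 21 of 1318 pairs passed. Of 20 pairs on 1 chromosome and 11 to 200 genes apart in the order of the array's genes, 13 passed, against 1 of 50 pairs farther apart on 1 chromosome and 3 of 1050 pairs on different chromosomes. Of the 13, 8 are combinations of the profiles of Gm3893 and 4933409K07Rik. No pair lay within 10 genes. Of 198 pairs with 1 or both members not placed, 4 passed. The share of pairs that passed was thus highest at 11 to 200 genes apart, where 1 pair of names gave most of the passing pairs.

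Gm3893 and 4933409K07Rik agreed in 35 of 35 strains in all 8 combinations of their profiles (adjusted p = 4.56e-07 for each, Fisher's exact test). The annotation names the one as a presumed and the other as a member of the CCL cluster, and their sequences were not compared. Gchfr, the feedback regulator of GTP cyclohydrolase, and Anapc1, a subunit of the anaphase-promoting complex, lie 145 genes apart on chromosome 2 and shared sides in 33 of 35 strains (adjusted p = 1.50e-06, Fisher's exact test), parting in BXD75 and BXD97. Sap30l and 2610507I01Rik on chromosome 11 agreed in 32 strains, and Ucp2, an uncoupling protein of mitochondria, and Trim12c, an antiviral tripartite-motif gene, agreed in 30 strains on chromosome 7 although they lie 147 genes apart. On chromosome 17, H2-Ea-ps shared sides with 9030025P20Rik in 30 strains across 438 genes. Psmb5, a catalytic subunit of the proteasome, shared sides with Ear11 in 28 strains on chromosome 14, and Copa, a subunit of the COPI coat, shared sides with Ifi202b in 28 strains on chromosome 1.

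Across chromosomes, Itgax and Mmp12 agreed in 32 of 35 strains (adjusted p = 1.24e-05, Fisher's exact test), parting in BXD55, BXD65 and BXD103. Rbp7 on chromosome 4 and 4930481A15Rik, placed on chromosome 19, agreed in 28 strains (adjusted p = 0.000918, Fisher's exact test). Copa and Snord53 lay on opposite sides in 25 of 35 strains (adjusted p = 0.0498, Fisher's exact test). Members without a position also joined pairs, Mela with Tmem234 in 28 strains, LOC100503226 with Tmem45b in 26 and Zfp125 with 4930481A15Rik in 27.

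**Figure D2:**
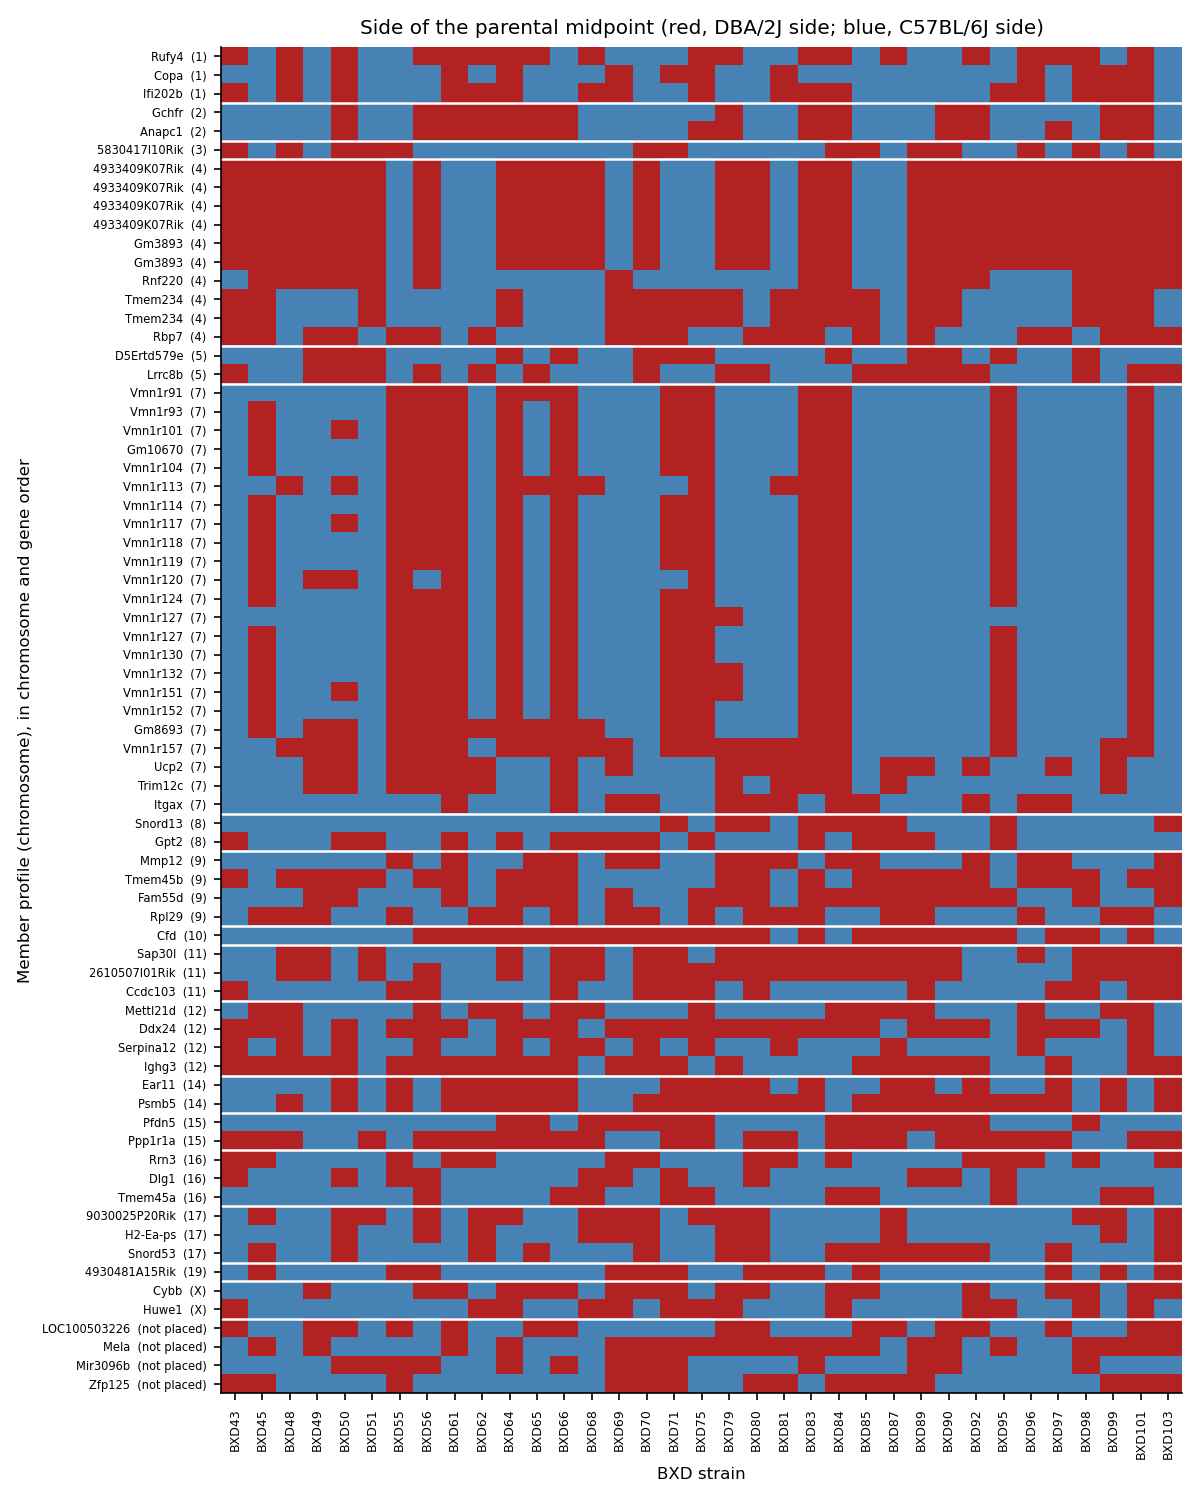
Side of the parental midpoint for each of 72 profiles (rows, in order of chromosome and gene, with the chromosome in brackets) and each of 35 BXD strains (columns), red for the DBA/2J side and blue for the C57BL/6J side. The Vmn1r rows on chromosome 7 show nearly the same pattern of strains, and the Gm3893 and 4933409K07Rik rows on chromosome 4 show the same pattern in all 35 strains.

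The next comparison asked which other transcripts follow a member over the strains. The level of every transcript was fitted with limma on the level of each profile over the 35 BXD strains, leaving out transcripts of the same name, and p-values were adjusted over all 2962669 tests together. At an adjusted p of 0.05, 3776 tests passed, or 0.127%. Each limma p-value given below tests the slope on the member's level, not the difference between side means printed beside it. Around members outside the Vmn1r cluster, 79 of 1084 non-member transcripts within 10 genes passed (7.29%, exact binomial 95% interval 5.81 to 9.00%). The share fell to 1.65% at 11 to 50 genes, 1.43% at 51 to 200 genes, 0.156% farther along the chromosome and 0.101% on other chromosomes. Around the cluster, 83.0% of 530 non-member transcripts within 10 genes passed, most of which are receptors of the same family. Among the 79 calls outside the cluster, the 2 profiles of Gm3893 gave 17 each, out of the same 53 transcripts within 10 genes. This 1 name therefore weighs heavily in the share of 7.29%. Intervals cover counting error only, and transcripts near 1 member are not independent.

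**Figure D3:**
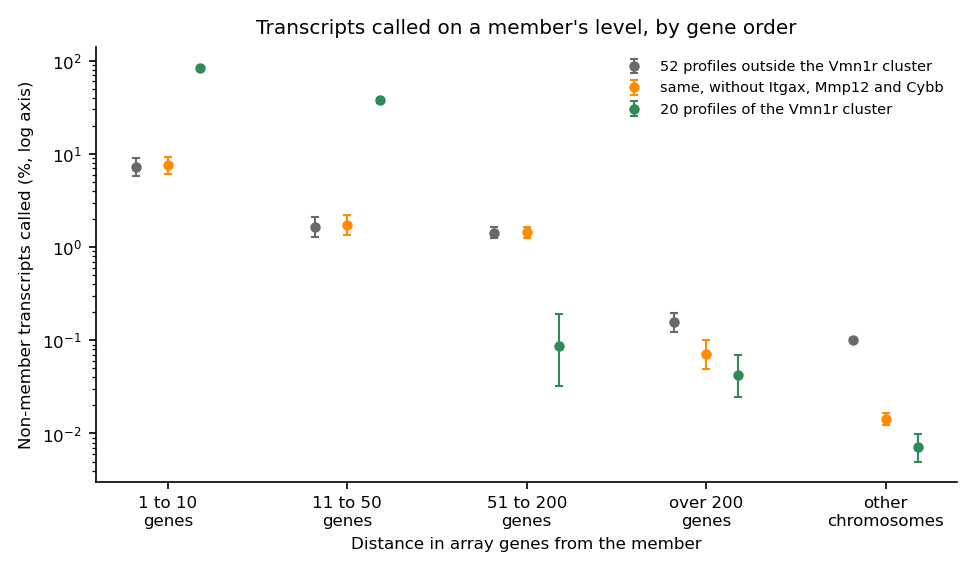
Share of non-member transcripts called on the level of a member (vertical log axis, percent) by distance in array genes, with exact binomial 95% intervals as bars. Outside the Vmn1r cluster the share fell from 7.29% within 10 genes to 0.101% on other chromosomes, and to 0.0144% there without Itgax, Mmp12 and Cybb.

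Each of the 47 names outside the cluster had at least 1 transcript called, with a median of 11 and a highest count of 445, and 10 names had 3 or fewer. Of 43 names placed on a chromosome, 31 had a call on their own chromosome. Among the 29 placed names with at least 5 placed calls, the chromosome with most calls was their own for 20.

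Of 35 placed transcripts called on H2-Ea-ps, the MHC member, 28 were on chromosome 17, but none of the 20 tested within 10 genes of it was called by limma (4 had an unadjusted p under 0.05). H2-Q10, a secreted MHC class I gene 71 genes away, had a mean of 10.46 ± 0.53 (SD, n = 11) on the DBA/2J side and 12.96 ± 0.37 (SD, n = 24) on the C57BL/6J side, without overlap (limma slope -0.47 units per unit, adjusted p = 1.07e-11). Gps1, a COP9 signalosome subunit placed on chromosome 11, was 12.2 ± 0.36 (SD) against 11.1 ± 0.26 (SD) on the same sides (limma adjusted p = 7.38e-10). Both genes followed the MHC member, one placed on its chromosome and one on another.

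Interferon-related members also followed their neighbours. Ifi202b, an interferon-inducible gene of the HIN-200 family, ran from 5.19 to 5.85 in 18 strains and from 6.42 to 7.72 in 17. Mndal, of the same family and 3 genes away, was 5.67 ± 0.37 (SD, n = 17) on the DBA/2J side and 7.30 ± 0.41 (SD, n = 18) on the C57BL/6J side, opposite to Ifi202b (limma adjusted p = 9.26e-08), whereas Ifi205, next to it, was higher with Ifi202b (limma slope 0.54, adjusted p = 0.000249). Trim12c was high in 13 strains, from 6.92 to 7.99, and ran from 5.33 to 6.15 in 22. Trim12a, 2 genes away, went the other way with 6.58 ± 0.32 (SD, n = 13) against 8.43 ± 0.30 (SD, n = 22) (limma adjusted p = 4.78e-10). Both families hold close relatives whose probe sets may share targets, so the values of single genes in them are uncertain.

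Ucp2 and Gpt2, 2 members with roles in mitochondria, had calls mostly on their own chromosome, while the fixed mitochondrial list held no member. Ucp2 read 8.66 in C57BL/6J and 10.7 in DBA/2J, with 17 strains from 9.02 to 9.63 and 18 strains from 9.86 to 11.4. All 17 placed transcripts called on it were on chromosome 7, among them Aqp11, a water channel gene 46 genes away, at 8.38 ± 0.46 (SD, n = 18) on the DBA/2J side and 9.06 ± 0.33 (SD, n = 17) on the other (limma adjusted p = 3.62e-06). Gpt2, a mitochondrial alanine aminotransferase, read 9.90 in C57BL/6J and 12.03 in DBA/2J, with 20 strains from 9.26 to 10.1 and 15 strains from 11.3 to 12.5. Of 7 placed calls on Gpt2, 6 were on chromosome 8, and Gadd45gip1, 30 genes away, was 9.18 ± 0.12 (SD, n = 15) on the DBA/2J side and 9.83 ± 0.13 (SD, n = 20) on the C57BL/6J side (limma adjusted p = 6.64e-12). The sides overlapped for Aqp11 and did not for Gadd45gip1.

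Fat-cell secreted proteins among the members were Cfd, adipsin, and Serpina12, vaspin. Cfd read 12.8 in C57BL/6J and 11.2 in DBA/2J, with 12 strains from 12.01 to 13.03 and 23 strains from 10.63 to 11.95. Its 8 calls lay on 7 chromosomes and included Retn, the fat-cell hormone resistin, at 11.6 ± 0.69 (SD, n = 23) on the DBA/2J side and 12.3 ± 0.38 (SD, n = 12) on the C57BL/6J side, which overlapped (limma adjusted p = 0.038). The mean of 3 white fat genes was 10.58 ± 0.37 (SD) on the DBA/2J side and 10.50 ± 0.33 (SD) on the C57BL/6J side of Cfd. Serpina12 read 6.25 and 7.95 in the parents and had 2 calls. Ppp1r1a, protein phosphatase 1 inhibitor 1, read 11.7 in C57BL/6J and 9.80 in DBA/2J and had 3 calls.

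Itgax, Mmp12 and Cybb, described together after their values were seen, are genes of myeloid cells: Itgax codes for CD11c, Mmp12 for macrophage elastase and Cybb for the catalytic subunit of the phagocyte NADPH oxidase. All 3 were higher in DBA/2J, by 1.87, 2.39 and 1.62 units. The level of Itgax ran from 6.79 to 7.98 in 23 strains and from 8.12 to 9.11 in 12. That of Mmp12 ran from 7.61 to 8.74 in 20 strains and from 8.92 to 10.51 in 15. For Cybb the sides nearly touched, at 9.03 to 9.87 in 17 strains and 9.90 to 11.2 in 18. Cybb shared its side with Mmp12 in 26 strains and with Itgax in 25, and neither pair passed the adjusted threshold (adjusted p = 0.070 and 0.125, Fisher's exact test).

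These 3 members had 445, 293 and 441 calls for Itgax, Mmp12 and Cybb, spread over 20 chromosomes each, with no more than 9.45% on any one. Cathepsin S (Ctss), a lysosomal protease, was 9.91 ± 0.47 (SD, n = 15) on the DBA/2J side of Mmp12 and 8.86 ± 0.34 (SD, n = 20) on the other, with overlap (limma adjusted p = 2.58e-11). Lgals3, galectin-3, was 9.61 ± 0.29 (SD, n = 12) and 8.89 ± 0.25 (SD, n = 23) on the sides of Itgax (limma adjusted p = 2.91e-10). Itgax and Mmp12 shared 222 calls, which were 49.9% of those of Itgax and 75.8% of those of Mmp12, and 154 calls were shared by all 3. Atp6v0d2, a subunit of the vacuolar proton pump, and Lilrb4, an inhibitory receptor of leukocytes, had slopes of 0.90 and 0.62 on Mmp12 (limma adjusted p = 8.33e-10 and 1.002e-09), and Laptm5, a lysosomal membrane protein gene of blood cells, had a slope of 0.60 on Cybb (limma adjusted p = 4.22e-09). The called genes rose with the member in 338 of 445, 244 of 293 and 392 of 441 cases.

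Values of a list of 10 macrophage genes, chosen after the data were seen, moved with these members. All 10 were on the array and 9 lay above background. The list's mean was 9.54 to 10.4 on the DBA/2J side of Itgax and 8.80 to 9.54 on the C57BL/6J side, overlapping at 9.54, and it was 9.10 in C57BL/6J and 9.83 in DBA/2J. Of the 10 genes, 6 were called on Itgax, 6 on Mmp12 and 8 on Cybb, and Cd68, Emr1, Lyz2, Lgals3 and Trem2 were called on all 3. Over the 41155 transcripts, less those of the member's own name, 445, 293 and 441 were called on the same 3 members. With the list's mean as a covariate, the calls numbered 2, 21 and 15. The list holds genes that were themselves called on these members. All profiles were refitted in the same way, and the calls over all of them went from 3776 to 2546. For 4 of the other members, calls went from 11 to 22 for Rufy4, 19 to 24 for Ucp2, 18 to 7 for Ear11 and 8 to 5 for Cfd. The part of macrophage number in the levels of these members was not tested.

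The promoters of these 3 members are shown because calls on each were spread over 20 chromosomes and 154 of them were shared. Capitals mark matches, on either strand, to GAGGAA, a core that PU.1-type factors bind, or to TGANTCA, an AP-1 type site. In 27025 RefSeq promoters of the same length, 28.3% held GAGGAA and 7.93% held TGANTCA. In the windows shown, Itgax held TGANTCA only, Mmp12 held GAGGAA only, and Cybb held both, without overlap between matches. RefSeq gave 2 promoters for Mmp12, of which 1 is shown.
Itgax, GRCm38.p6 chr7:128129300-128129599, plus strand: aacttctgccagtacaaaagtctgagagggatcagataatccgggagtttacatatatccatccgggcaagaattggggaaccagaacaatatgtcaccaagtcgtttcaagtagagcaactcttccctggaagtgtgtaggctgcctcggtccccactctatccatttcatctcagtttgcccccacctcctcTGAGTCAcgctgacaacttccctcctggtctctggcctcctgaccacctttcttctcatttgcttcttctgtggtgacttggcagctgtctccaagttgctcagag
Mmp12, GRCm38.p6 chr9:7344147-7344446, plus strand: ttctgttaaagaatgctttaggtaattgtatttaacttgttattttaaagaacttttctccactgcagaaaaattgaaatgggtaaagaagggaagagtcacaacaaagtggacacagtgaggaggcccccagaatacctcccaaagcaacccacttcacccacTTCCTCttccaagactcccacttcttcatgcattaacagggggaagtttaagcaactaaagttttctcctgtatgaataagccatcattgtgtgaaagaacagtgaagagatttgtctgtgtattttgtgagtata
Cybb, GRCm38.p6 chrX:9469275-9469574, minus strand: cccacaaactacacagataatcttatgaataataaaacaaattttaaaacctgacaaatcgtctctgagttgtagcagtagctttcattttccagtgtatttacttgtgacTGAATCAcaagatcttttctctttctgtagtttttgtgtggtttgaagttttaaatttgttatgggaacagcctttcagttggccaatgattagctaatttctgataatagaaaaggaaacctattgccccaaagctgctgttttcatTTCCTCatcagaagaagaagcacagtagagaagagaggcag
A match describes letters in the window and no binding was measured.

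**Figure D4:**
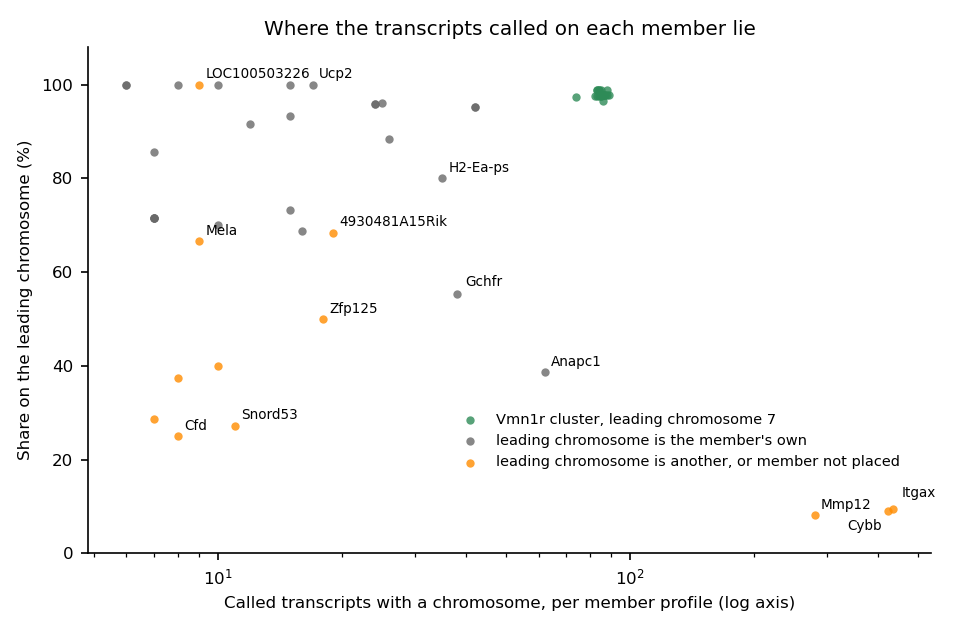
Number of placed transcripts called on each profile (horizontal log axis, profiles with at least 5) against the share that lies on the chromosome with most calls (vertical axis, percent). Profiles of the Vmn1r cluster lie near 100% on chromosome 7, while Itgax, Mmp12 and Cybb have 280 to 434 placed calls with under 10% on any chromosome.

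Other members had calls that lie on a chromosome where the member is not placed. Mela has no place in the annotation, and 6 of 9 placed calls were on chromosome 9, led by Myo5a, the motor protein gene of the dilute coat colour locus, at 11.2 ± 0.14 (SD, n = 21) on the DBA/2J side and 10.4 ± 0.14 (SD, n = 14) on the C57BL/6J side, without overlap (limma adjusted p = 4.16e-11). Gsta4, a glutathione transferase on chromosome 9, was 12.1 ± 0.19 (SD) and 11.5 ± 0.31 (SD) on the same sides, with overlap (limma adjusted p = 8.1e-05). All 9 placed calls of LOC100503226 were on chromosome 9, 9 of 18 of Zfp125 were on chromosome 12, and all 3 of Mir3096b were on chromosome 5. The gene 4930481A15Rik is placed on chromosome 19, but 13 of its 19 placed calls were on chromosome 4, led by Fbxo44 at 7.99 ± 0.22 (SD, n = 13) and 9.09 ± 0.34 (SD, n = 22) (limma adjusted p = 1.69e-09).

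Local calls were also strong for members with other roles. Anapc1 read 12.3 in C57BL/6J and 8.66 in DBA/2J, with 19 strains from 12.02 to 12.88 and 16 strains from 7.30 to 10.2. Mertk, a receptor kinase for the clearance of dying cells that lies next to Anapc1, was 9.16 ± 0.17 (SD, n = 16) on the DBA/2J side and 10.1 ± 0.25 (SD, n = 19) on the C57BL/6J side (limma adjusted p = 4.27e-09). The level of 9030025P20Rik was followed by Ermard, 2 genes away, at 11.2 ± 0.12 (SD, n = 16) and 10.3 ± 0.14 (SD, n = 19) (limma adjusted p = 3.24e-16). For Tmem234, Hdac1, a histone deacetylase gene 4 genes away, was 10.1 ± 0.25 (SD, n = 18) and 11.1 ± 0.13 (SD, n = 17) (limma adjusted p = 9.28e-10). Further close neighbours among the smallest p-values were Gm13298, 3 genes from Gm3893 (limma slope 0.51, adjusted p = 4.27e-17), Gm3417 and Tcte3, each 1 gene from 9030025P20Rik (limma slopes 0.65 and 0.54), Orc6, a subunit of the origin recognition complex 3 genes from Gpt2 (limma slope -0.21), and Ppp1r3e, 9 genes from Psmb5 (limma slope 0.36). Mettl21d was followed by Pygl, liver glycogen phosphorylase, 15 genes away, at 12.5 ± 0.31 (SD, n = 15) and 11.7 ± 0.27 (SD, n = 20) (limma adjusted p = 5.69e-06), although Pygl read 12.5 in DBA/2J and 12.4 in C57BL/6J.

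For 26 of 66 names the array holds further probe sets, 327 in all, which show whether the whole gene followed the member. For 4933409K07Rik all 16 others were lower on the DBA/2J side, with side differences from -3.30 to -1.15 units. For Psmb5 the member differed by 2.14 units between the parents, and its 8 other probe sets were all lower on the DBA/2J side, with a median of -0.38 units. Other genes had probe sets that did not follow. The 77 others of Huwe1, a ubiquitin ligase, had side differences from -0.30 to 0.66 units with a median near 0 (-0.0047), and those of Rnf220 (24 others), Ddx24 (11 others) and Rrn3 (20 others) had medians of -0.0072, 0.0005 and -0.037. Anapc1 had 51 others with a median of -0.077 but single probe sets down to -2.40, and Copa had 36 with a median of -0.11 and one at -1.93. For Huwe1, Rnf220, Ddx24 and Rrn3 the split was that of the member probe set, and the sides overlapped in all others. For Anapc1, 36 of the 51 others went in the member's direction between sides. Of these 51, 4 differed by at least 1.5 units between the parents, in either direction. For Copa the counts were 25 of 36 and 1. The sides also overlapped in every other probe set of Anapc1 and Copa. Of the 14 other probe sets of Tmem234, 4 were lower on the DBA/2J side, like its member profiles. The median over these 14 was 0.083 units. Whether a variant lies under the member probe sets was not tested for any of these genes.

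**Figure D5:**
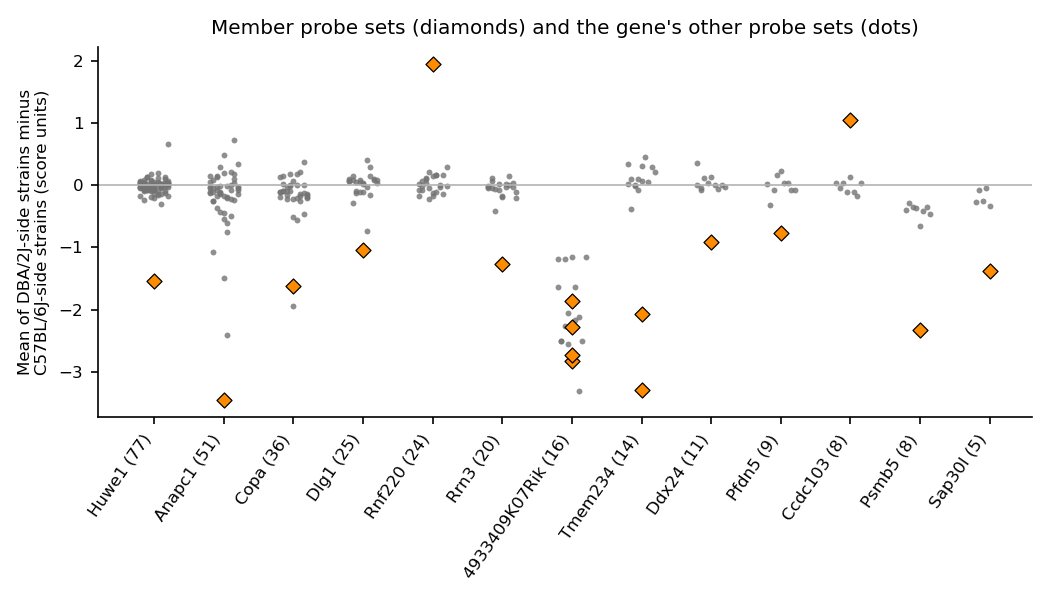
Mean of the DBA/2J-side strains minus the mean of the C57BL/6J-side strains (vertical axis, score units) for member probe sets (diamonds) and all other probe sets of the same gene (dots), for names with at least 5 others, whose number is in brackets. The dots of Huwe1, Rnf220, Rrn3 and Ddx24 lie around 0, while those of 4933409K07Rik lie from -3.30 to -1.15.

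The remaining members are given by the parental difference of the member probe set. Other probe sets went in the member's direction between sides in 4 of 8 for Ccdc103 and 1 of 3 for D5Ertd579e. The counts were 0 of 1 for Rpl29, 8 of 25 for Dlg1 and 4 of 9 for Pfdn5. They were 1 of 1 each for 5830417I10Rik and Ighg3. Tmem45a was higher in DBA/2J by 1.89 units, Ccdc103 by 1.60 and Gchfr by 1.78. The strains of Tmem45b ran from 13.11 to 13.97 in 12 and from 9.51 to 11.3 in 23, with an empty stretch of 1.77 units between. Lower in DBA/2J were Tmem45b and Fam55d, by 2.39 and 2.35 units, D5Ertd579e by 2.07, Rpl29, a ribosomal protein gene, by 1.87, Dlg1 by 1.73, Pfdn5, a prefoldin subunit, by 1.57 and 5830417I10Rik by 1.57. Ighg3, an immunoglobulin heavy chain gene, was the smallest, with 7.76 in C57BL/6J and 6.24 in DBA/2J, and only 1 transcript was called on it. Huwe1 and Rrn3 also had 1 call each.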

How the data were processed

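Brown adipose RNA of 37 strains was hybridised by the authors to Affymetrix mouse gene arrays, and the submitters' processing notes name Affymetrix Expression Console. The authors deposited 1 table of 41345 probe sets as scores, each array rescaled to a mean of 8 and an SD of 2. The summary method, log base and genome build are not given in the sources used here. Forcing every array to the same SD changes the size of its differences, and therefore quantile normalization and centring on the median served as alternative scalings. The tests had been planned without knowledge of that scale and were run on the scores as deposited. Of the probe sets, 190 controls were left out. The number of arrays limits the precision, since each strain has 1 array and the depth of an array cannot be counted.

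Columns were matched to strains by name and 0 value columns were left over. Members were found by the stated rule, and the members and gene lists were chosen with earlier results of these data known. Gene order and chromosomes came from the RefSeq annotation of GRCm38.p6, which placed 23467 of 24657 gene names and 62 of the 66 member names. Its promoter table held 50 member names. Sides were compared between members with Fisher's exact test (scipy 1.17.1). Covariation was fitted with limma 3.58.1 (R 4.3.3), lmFit and eBayes, over 35 strains. Strains were taken as independent, although some may share more ancestry than others. Both steps were tested on simulated data. Named genes were members in the fixed lists, the 10 largest parental differences each way, members of the 8 largest groups of concordant neighbours, those nearest each limit, and the 10 non-members with the smallest p within 10 genes and on other chromosomes, of which the text describes some. Itgax, Cybb, Gpt2, Cfd, Serpina12 and the remaining members were added after their values were seen, as was the macrophage list. A list of 8 genes of lipid-laden macrophages was also added to the planned lists. Its mean ran from 9.35 to 10.4 over the BXD strains, and it is not described further.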

Additional observations from a re-analysis of the deposited data

How the results depend on the processing

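The number of members, 81 in the analysis above, was 84 after quantile normalization, 86 after median centring and 82 without BXD70, and 79 of the 81 were found again in each case. It followed the limits of the rule, being 147 with a parental difference of at least 1 unit, 52 with 2 units, 138 with an SD under 33.3% of the difference and 35 with an SD under 20%. Averaging the probe sets of a name gave 45 genes, of which 44 are member names. The 199 concordant pairs stayed between 150 and 210 under quantile normalization, median centring, another midpoint, the removal of BXD70 and Bonferroni adjustment. With 1 profile per gene name and without the Vmn1r cluster, an alternative chosen after seeing the data, 9 of 1081 pairs passed. The 3776 calls became 5935 when p-values were adjusted within each member, and 1807 when the Vmn1r cluster was left out, also chosen after seeing the data. The share of near neighbours called, 39.4% over all members and all transcripts, was 46.9% when dim transcripts were left out and 6.92% without the Vmn1r cluster. The cause of these shifts was not tested. For 22 named profiles, 110 of 110 alternative parental and side differences kept their direction and moved by less than the SD within a side, at most 0.091 units. No paired analysis was possible because each parent has 1 array, so the groups share fewer than 2 replicate numbers, and these numbers only follow the order of the samples. With 1 array per strain, leaving out replicates was not possible either.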

Other observations

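Among the 12763 transcripts without a gene name, 50 met the same conditions on the parental difference, the number of strains and the SD, 15 higher in DBA/2J and 35 higher in C57BL/6J. They were not described here because the array file gives them no gene.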
